A study of Mus musculus with 16 samples.

Results

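The genes described here are the mouse Hox genes of the 4 clusters and *Pitx1*, measured by bulk RNA sequencing in lamina propria cells of ileum and colon. Members were taken by symbol, as every gene named Hoxa, Hoxb, Hoxc or Hoxd followed by a number alone, together with *Pitx1*. They were 40 of the 35647 genes in the deposited table, made up of 11 HoxA, 10 HoxB, 9 HoxC and 9 HoxD genes and *Pitx1*. Germ-free mice of wild-type genotype had carried a single gut commensal, *Bifidobacterium breve*, for 5 weeks, either as a Δchat strain that makes no acetylcholine or as the WT strain, with 4 mice for each. Cells from under the epithelium were collected on a Percoll gradient of 40 and 80%. The 4 groups were ileum with Δchat, ileum with WT, colon with Δchat and colon with WT, with 4 libraries each, and all mice lacked any other microbe. Here WT and Δchat always name the bacterium. The labels do not give the age, sex or mouse strain of these animals, nor which ileum and colon libraries came from the same mouse, and libraries of uncolonised mice were not analysed here.

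Hox genes encode homeodomain transcription factors that give cells a position along the head-to-tail axis. In each cluster, genes with low paralogue numbers lie at one end and are used from the hindbrain backwards, while genes with high numbers lie at the other end and are used towards the tail. In the gut this code is laid down in the mesoderm that becomes smooth muscle and fibroblasts, and the highest paralogues mark the hindgut, from which most of the colon forms. *Pitx1* is a homeobox gene outside the clusters, best known for giving the hindlimb its identity. Some Hox genes are also used by blood progenitors, and *Hoxb13* is known from the epithelium of the distal colon and rectum.

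Library totals ran from 15.9 to 23.6 M estimated counts. Levels are given as CPM, counts scaled to a common depth with the library totals adjusted by TMM over all 16 libraries. The labels call the cells lamina propria immune cells, and the leukocyte gene *Ptprc* had 588 to 899 CPM in ileum and 647 to 1304 CPM in colon. Stromal RNA was present too: the 18 fibroblast markers summed to 1598 to 9414 CPM in ileum and 5287 to 11570 CPM in colon, and none was at 0 throughout a group. In these bulk samples, fewer cells of a type and less RNA per cell cannot be told apart, and which cells the Hox transcripts came from was not tested. 1 library stood apart, colon Δchat replicate 3, whose 16 epithelial markers had a mean log2 CPM of 6.78, against 0.70 to 3.35 in the other 7 colon libraries. Values that moved by over 1.5 times without it are given both ways. The fibroblast score was low in ileum Δchat replicates 1 and 2, at 5.48 and 5.20, against 6.33 to 8.06 in the other 14 libraries. In the mean over both strains, colon libraries had more B cell RNA (10 of 10 markers lower in ileum), and ileum libraries had more macrophage RNA (10 of 10 markers higher in ileum). Within mice of one strain, B cell markers lower at an adjusted p under 0.05 were 0 of 10 with Δchat (median log2 value -1.11) and 10 of 10 with WT. Macrophage markers were higher in 9 of 10 with either strain. The part of this cell makeup in the Hox results was not tested, beyond the covariates named below.

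**Figure D1:**
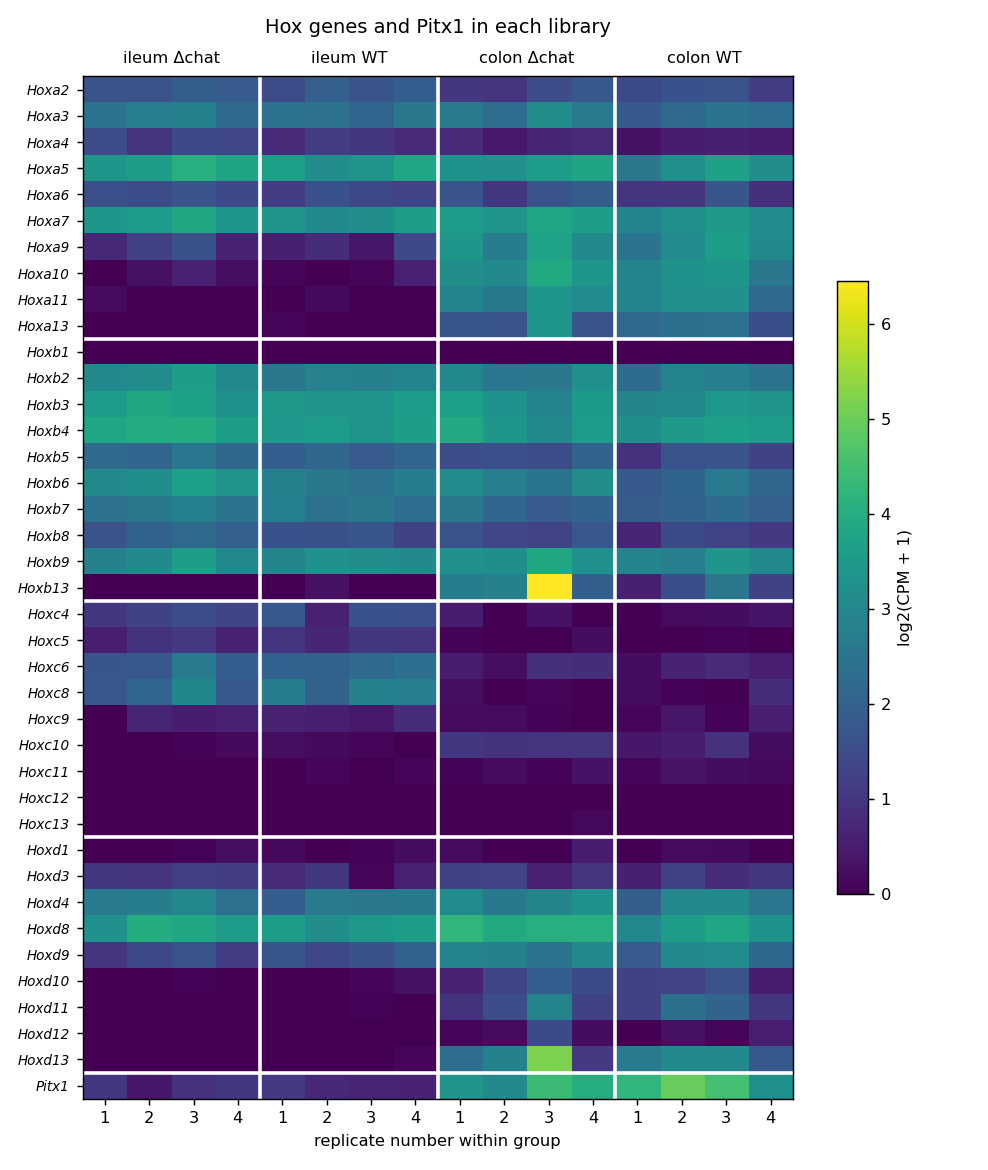
Level of Hox genes and *Pitx1* as log2(CPM + 1), colour scale from 0, with genes in cluster order down the page and the 16 libraries across it in 4 groups of 4. The rows of *Hoxa10*, *Hoxa11*, *Hoxa13*, *Hoxd10*, *Hoxd11*, *Hoxd13* and *Hoxb13* are near 0 in ileum and filled in colon, and the rows of *Hoxc4* to *Hoxc8* are the other way round.

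The ileum was compared with the colon to ask how the Hox code differs between the 2 gut regions sampled. Genes with high paralogue numbers were lower in ileum, several of them near 0 there, while HoxC genes of the middle of the cluster were higher in ileum. Most genes with low numbers had similar levels in both. Of the 34 members with enough counts to be tested, 10 were higher and 11 were lower in ileum by edgeR's quasi-likelihood test on the mean over both strains, called at a Benjamini-Hochberg adjusted p under 0.05 over all genes. Over all 15198 genes tested, 18.5% were called higher and 19.7% lower, while among the members tested it was 29.4% and 32.4%. The median log2 fold change, ileum over colon, was 0.08 over the members tested and -0.04 over all genes. The log2 values ran down to -9.54 in *Hoxd13* and up to 5.07 in *Hoxc8*.

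The split followed the paralogue number. Of the 23 genes numbered 1 to 8, 21 were tested, 9 were higher in ileum and 0 were lower by edgeR. Unadjusted p was under 0.05 for 10 of these 21, all higher in ileum. DESeq2 called 0 of them lower and limma-voom called 1, *Hoxd8*. Of the 16 genes numbered 9 to 13, 12 were tested, of which 10 were lower, 1 was higher and 1, *Hoxb9*, was not called. *Hoxa10*, *Hoxa11*, *Hoxa13*, *Hoxb13*, *Hoxc10*, *Hoxd10*, *Hoxd11* and *Hoxd13* passed the low-count filter through colon alone, as the filter over ileum libraries dropped them. *Hoxc4*, *Hoxc5*, *Hoxc8* and *Hoxc9* passed it through ileum alone. For these genes the direction was bound to their entry. The counts and shares called therefore describe the members and are no test of the split. CPM of the 8 ileum and the 8 colon libraries did not overlap for 14 tested members, 5 of them higher and 9 lower in ileum, against 4.36% and 2.16% of all genes. By cluster, HoxA had 1 higher and 4 lower, HoxB 4 higher and 1 lower, HoxC 5 higher and 1 lower, and HoxD 0 higher and 4 lower.

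**Figure D2:**
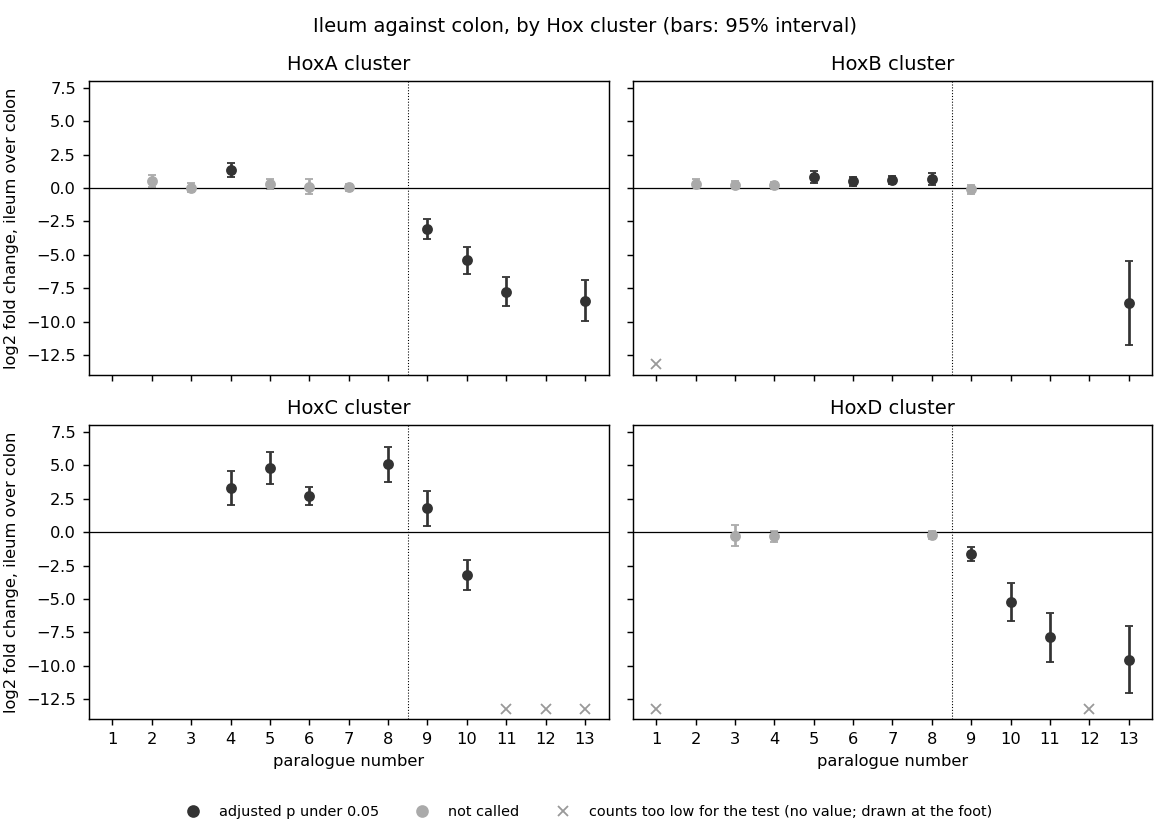
Log2 fold change of ileum over colon, as the mean over both strains, against paralogue number in each cluster. Points are edgeR estimates with 95% intervals, dark where the adjusted p was under 0.05. Crosses mark members too low to be tested. In HoxA and HoxD no point up to number 8 is called lower, *Hoxa4* is called higher, and the points fall with each number from 9 on.

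In HoxA the change set in between neighbours. *Hoxa7*, a gene of the trunk and the last member before the gap at number 8, had a lowest, median and highest level of 7.53, 9.49 and 13.6 CPM in ileum and of 6.41, 9.64 and 12.8 CPM in colon. The ranges lay on top of each other, and the log2 fold change was 0.06 ± 0.12 (SE; adjusted p = 0.714). *Hoxa9*, known for blood progenitors as well as for the trunk, had 0.654, 1.36, 2.01 and 0.557 CPM in ileum Δchat and 0.476, 0.786, 0.314 and 1.67 CPM in ileum WT. In colon Δchat it had 9.62, 5.58, 12.1 and 7.46 CPM, and in colon WT 4.54, 7.64, 11.1 and 7.28 CPM. Every ileum library lay below every colon library, and the log2 fold change was -3.07 ± 0.35 (adjusted p = 2.65e-05). The 95% intervals were -0.20 to 0.32 for *Hoxa7* and -3.83 to -2.32 for *Hoxa9*. The drop widened along the cluster, to -5.40 ± 0.47 in *Hoxa10* (adjusted p = 3.86e-06), -7.76 ± 0.51 in *Hoxa11* (4.01e-07) and -8.44 ± 0.71 in *Hoxa13* (9.78e-06).

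These 3 genes, known for patterning of the limb and the urogenital tract, were close to or at 0 in ileum. *Hoxa10* ran from 0 to 0.514 CPM in ileum with a median of 0.131 CPM, and from 4.85 to 14.2 CPM in colon with a median of 8.44 CPM. *Hoxa11* had 4 counts in all 8 ileum libraries together and was at 0 in 6 of them, while colon libraries held 3.67 to 9.39 CPM. *Hoxa13*, the terminal gene of the cluster and a marker of the hindgut, had 1 count over the ileum libraries. In colon Δchat it had 2.29, 2.17, 9.68 and 2.12 CPM, and in colon WT 3.61, 4.18, 4.31 and 1.92 CPM. With so few counts the fitted fold depends on the small count that the tool adds, so the ratio of pooled counts is given as well, here as colon over ileum. It was 609 for *Hoxa13*, with an exact 95% interval of 109 to 24080 that covers counting error only, and 275 (107 to 1012) for *Hoxa11*. All 3 stayed called with each library left out in turn. The fitted value moved by over 1.5 times for *Hoxa10* without ileum WT replicate 4 (-6.14), for *Hoxa11* without ileum Δchat replicate 1 (-8.94) or ileum WT replicate 2 (-8.97), and for *Hoxa13* without ileum WT replicate 1 (-9.30), which are libraries that held ileum counts of the gene.

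The sequence before the start of a gene is shown for the 2 genes on either side of this step and for the 2 terminal genes described most fully, since the members of one end moved together. Windows run from 250 bases before to 50 bases after the RefSeq start (build GRCm38.p6, not the GRCm39 of the counts), 5′ to 3′ on the gene's strand, with each CG in capitals.
Hoxa7, chr6:52218524-52218823, minus strand: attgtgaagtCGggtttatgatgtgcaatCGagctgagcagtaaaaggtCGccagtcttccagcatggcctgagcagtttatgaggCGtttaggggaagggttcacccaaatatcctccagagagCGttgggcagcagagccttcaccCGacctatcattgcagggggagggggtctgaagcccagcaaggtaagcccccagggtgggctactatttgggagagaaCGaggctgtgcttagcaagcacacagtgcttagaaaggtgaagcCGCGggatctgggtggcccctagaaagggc
Hoxa9, chr6:52227321-52227620, minus strand: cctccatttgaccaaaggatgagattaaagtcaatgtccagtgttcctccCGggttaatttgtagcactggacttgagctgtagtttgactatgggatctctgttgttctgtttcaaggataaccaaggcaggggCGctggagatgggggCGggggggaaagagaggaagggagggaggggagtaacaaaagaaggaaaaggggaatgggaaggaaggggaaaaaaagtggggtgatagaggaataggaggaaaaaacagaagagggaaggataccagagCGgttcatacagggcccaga
Hoxa13, chr6:52260831-52261130, minus strand: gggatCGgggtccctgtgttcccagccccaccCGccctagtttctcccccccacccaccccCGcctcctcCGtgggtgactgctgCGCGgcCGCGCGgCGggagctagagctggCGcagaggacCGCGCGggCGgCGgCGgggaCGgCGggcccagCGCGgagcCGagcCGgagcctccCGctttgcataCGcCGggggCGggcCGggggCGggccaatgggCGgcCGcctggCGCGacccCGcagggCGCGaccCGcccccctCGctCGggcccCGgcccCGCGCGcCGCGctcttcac
Hoxd13, chr2:74667975-74668274, plus strand: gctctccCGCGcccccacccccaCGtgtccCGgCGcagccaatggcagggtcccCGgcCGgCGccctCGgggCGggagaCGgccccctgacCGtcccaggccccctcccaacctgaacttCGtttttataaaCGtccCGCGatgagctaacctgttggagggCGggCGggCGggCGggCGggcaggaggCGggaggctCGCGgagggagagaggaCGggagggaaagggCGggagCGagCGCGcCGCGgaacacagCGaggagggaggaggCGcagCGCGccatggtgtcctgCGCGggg

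The terminal genes had the windows richest in CG, with 45 in *Hoxa13* and 37 in *Hoxd13*, against 9 in *Hoxa7* and 4 in *Hoxa9*. RefSeq windows were at hand for 22 of the 40 members, 24 windows in all, and their CG counts ran from 4 to 45 with a median of 14.5, against a median of 7 over all 32851 mouse windows. As many CG as in *Hoxa13* or more were found in 1.93% of all windows. 3 motifs were searched on both strands. TTTATNG, a form bound by CDX and posterior HOX proteins, was found in *Hoxb8* and *Hoxd4* and in 10.9% of all windows. TGATTNAT, a PBX and HOX form, was found in *Hoxa2* and *Hoxd11* and in 3.22% of all windows. TAATTA, the homeodomain core, was found in both windows of *Hoxd11* and in 5.29% of all windows. Matches of the last 2 can share letters, but those in *Hoxd11* lay apart. None of the 3 was in the 4 windows printed, which says only that these letters are absent there.

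HoxD showed the same order. *Hoxd8*, a mid-trunk gene, had 8.09, 10.9 and 15.0 CPM as lowest, median and highest in ileum and 7.12, 13.6 and 18.1 CPM in colon, and its log2 fold change was -0.20 ± 0.14 (adjusted p = 0.282). *Hoxd3* and *Hoxd4*, active from the hindbrain back, were not called either, at -0.28 ± 0.37 and -0.31 ± 0.20 (adjusted p = 0.576 and 0.237). They share 388 exon bases in the annotation, so that the estimate can split their reads. *Hoxd9* was the first to fall. It ran from 0.981 to 3.004 CPM in ileum (median 1.83 CPM) and from 2.63 to 7.71 CPM in colon (median 6.26 CPM), where the top ileum library, WT replicate 4, passed the lowest colon library, and the log2 fold change was -1.62 ± 0.25 (adjusted p = 2.19e-04).

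*Hoxd10*, *Hoxd11* and *Hoxd13*, known for the distal limb and the hind end of gut and genital tract, fell further. *Hoxd10* was at 0 in 5 of 8 ileum libraries, with 7 counts over all 8 and at most 0.223 CPM, and had 0.395 to 2.80 CPM in colon (log2 fold change -5.24 ± 0.66; adjusted p = 5.06e-05). *Hoxd11* had 1 count over the ileum and 0.927 to 6.51 CPM in colon (-7.88 ± 0.83; adjusted p = 4.14e-05), and a pooled ratio of colon over ileum of 415, with an interval of 74.1 to 16430. *Hoxd13* had 1 count in ileum too, in WT replicate 4 at 0.0556 CPM. In colon Δchat it had 4.02, 6.07, 35.5 and 1.11 CPM, and in colon WT 5.26, 7.28, 7.39 and 2.54 CPM.

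The lowest colon library of *Hoxd13* was still above every ileum library, and the log2 fold change was -9.54 ± 1.13 (adjusted p = 1.10e-04). The pooled ratio of colon over ileum was 1430, with an interval of 256 to 56510. Replicate 3 of colon Δchat, at 35.5 CPM, was 6.75 times the median of the other 7. Without it the pooled ratio was 772 (138 to 30530) and the log2 fold change was -8.70 ± 0.69 (adjusted p = 1.32e-05). Without ileum WT replicate 4 it was -10.4 ± 1.52, *Hoxd11* without ileum WT replicate 3 was at -8.70 ± 1.06, and *Hoxd10* without ileum Δchat replicate 3 at -6.02 ± 0.84. *Hoxd12*, between these genes in the cluster, was too low to be tested. It had 0 counts in ileum and 64 in colon, where it reached 1.71 CPM in Δchat replicate 3 and stayed at 0 to 0.451 CPM in the others. Against a floor of 3 counts over the ileum libraries it was at least 19.2-fold lower in ileum, or at least 8.02-fold without Δchat replicate 3, which leaves 23 colon counts.

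**Figure D3:**
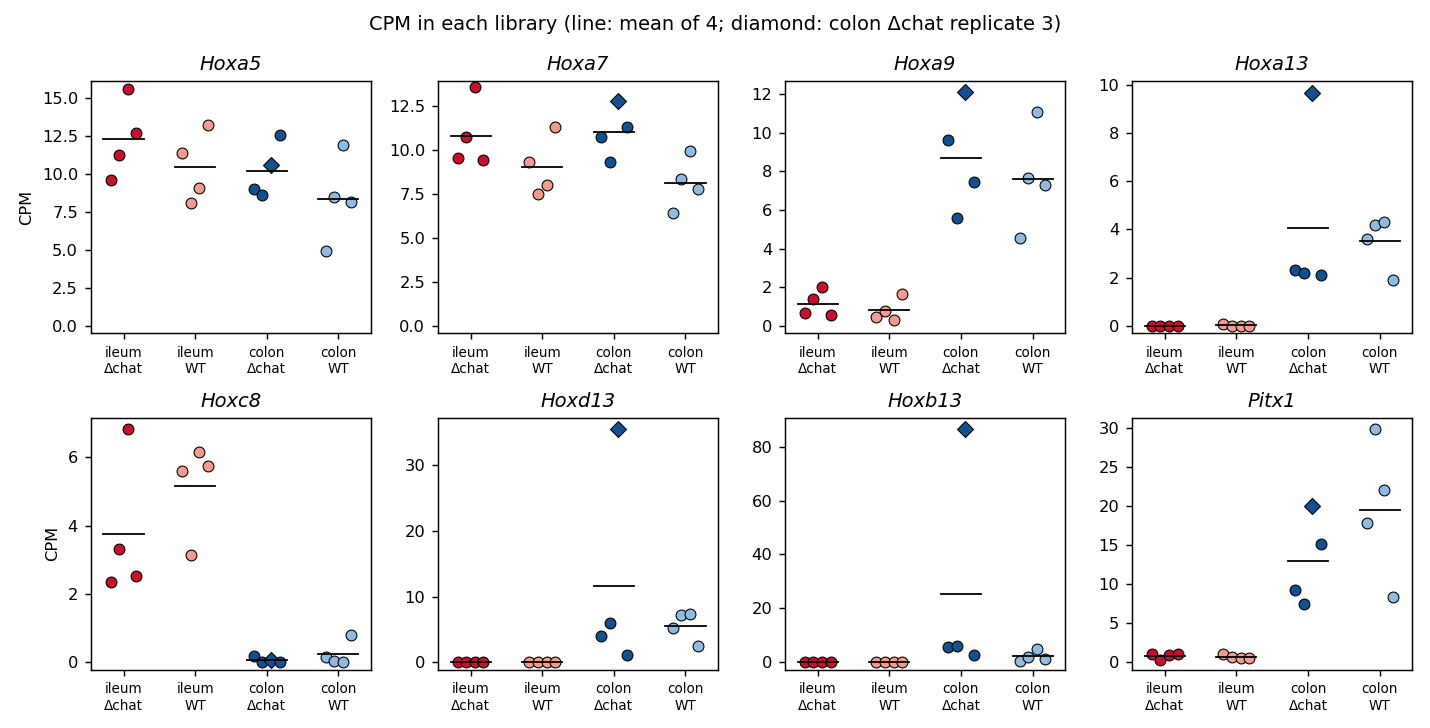
CPM of 8 members in each of the 16 libraries, with a line at the mean of each group of 4 and a diamond for colon Δchat replicate 3. *Hoxa5* and *Hoxa7* overlap between regions, *Hoxa9*, *Hoxa13*, *Hoxd13*, *Hoxb13* and *Pitx1* are lower in every ileum library and *Hoxc8* is higher in every one. The diamond is at 86.4 CPM in *Hoxb13*.

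HoxC was the cluster higher in ileum, and colon held little of it. *Hoxc8*, a gene of the mid-trunk, had 2.35, 3.32, 6.81 and 2.53 CPM in ileum Δchat and 5.597, 3.15, 6.15 and 5.73 CPM in ileum WT. In colon Δchat it had 0.177, 0, 0.0835 and 0 CPM, and in colon WT 0.164, 0.0449, 0 and 0.790 CPM. The lowest ileum library lay above the highest colon one, which was WT replicate 4, and the log2 fold change was 5.07 ± 0.63 (adjusted p = 4.65e-05), or 5.97 ± 0.58 without that library. *Hoxc6*, which is linked to the thorax, ran from 2.29 to 5.27 CPM in ileum with a median of 3.04 CPM, and from 0.164 to 0.835 CPM in colon with a median of 0.495 CPM (2.69 ± 0.32; adjusted p = 3.58e-05).

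*Hoxc5* ran from 0.458 to 1.11 CPM in ileum (median 0.936 CPM), and colon had 5 counts over its 8 libraries, 5 of which were at 0. Its log2 fold change was 4.78 ± 0.56 (adjusted p = 2.88e-05), or 5.45 without colon Δchat replicate 4 and 5.55 without colon WT replicate 3. *Hoxc4*, an anterior member also expressed in lymphocytes, rose by 3.32 ± 0.59 (adjusted p = 6.73e-04), and its groups did not overlap. *Hoxc9* was higher by 1.78 ± 0.60 (adjusted p = 0.0309) with overlap between the groups, at 0 to 0.779 CPM in ileum and 0 to 0.451 CPM in colon. Its call was lost without ileum Δchat replicate 2 or 4, ileum WT replicate 4, colon Δchat replicate 3 or 4, or colon WT replicate 1 or 3, with adjusted p of up to 0.0595, and at 0.0859 in limma-voom.

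At *Hoxc10* the direction turned, and it was lower in ileum by -3.20 ± 0.52 (adjusted p = 3.47e-04), with 0 to 0.179 CPM in ileum and 0.169 to 1.06 CPM in colon, or by -3.81 without ileum Δchat replicate 4. *Hoxc5* and *Hoxc10* share 166 exon bases in the annotation. Beyond it, *Hoxc11* had 2 counts in ileum and 23 in colon, a ratio of colon over ileum of 10.4 (interval 2.56 to 90.6). *Hoxc13* had 0 counts in ileum and 2 in colon, and *Hoxc12* had none in any library.

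In HoxB the levels in both regions were close. *Hoxb4*, known for expansion of blood stem cells, had 9.06, 11.2 and 14.8 CPM as lowest, median and highest in ileum and 7.01, 10.4 and 13.9 CPM in colon. Its log2 fold change was 0.19 ± 0.12 (adjusted p = 0.239), and those of its anterior neighbours *Hoxb2* and *Hoxb3* were 0.31 ± 0.16 and 0.26 ± 0.13, not called. The run from *Hoxb5* to *Hoxb8* was higher in ileum by small amounts: *Hoxb5* by 0.82 ± 0.20 (adjusted p = 0.00537), *Hoxb6* by 0.49 ± 0.16 (0.0282), *Hoxb7* by 0.56 ± 0.14 (0.00712) and *Hoxb8* by 0.64 ± 0.21 (0.0285). The libraries of the regions overlapped for each of these 4. *Hoxb6* lost its call without ileum Δchat replicate 3, colon Δchat replicate 2 or colon WT replicate 1, 2 or 4 (adjusted p up to 0.0617), and *Hoxb8* without ileum Δchat replicate 3, colon Δchat replicate 2 or colon WT replicate 4 (up to 0.0606). With the replicate number as a block in the edgeR fit, *Hoxb6* and *Hoxb8* were not called either (adjusted p = 0.0712 and 0.0551). *Hoxb1*, a hindbrain gene, had no count in any library.

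*Hoxb9* was the one tested gene numbered 9 or above that was not called, at 6.02 to 11.3 CPM in ileum and 5.79 to 13.6 CPM in colon, with a log2 fold change of -0.11 ± 0.15 and an interval of -0.44 to 0.21. *Hoxb13*, the other end of the cluster, was lower in ileum by -8.62 ± 1.44 (adjusted p = 0.0011). It had 4 counts in ileum, all in WT replicate 2, at 0.225 CPM. Colon Δchat libraries had 5.69, 6.03, 86.4 and 2.87 CPM, and colon WT libraries 0.493, 1.93, 4.91 and 1.41 CPM. The third colon Δchat library was 30.1 times the median of the other 7, and in it the epithelial score was 6.78.

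Without that library the pooled ratio of *Hoxb13*, colon over ileum, was 137 (interval 53.0 to 503), against 584 (228 to 2143) with it. Its log2 fold change was then -7.41 ± 0.86 (adjusted p = 1.29e-04), and with the mean of the epithelial markers added to the fit it was -7.81 ± 0.51 (2.38e-06). Without ileum WT replicate 2 it was -10.3 ± 1.98. In the same library *Hoxa13* and *Hoxd11* were 4.22 and 4.76 times the median of the other 7, *Hoxd12* 12.9 times and *Hoxa11* 1.45 times. *Hoxb3*, *Hoxb4* and *Hoxb7* were lower in it than in any other colon library. Its colonic epithelium score was 7.33, against 1.65 to 4.08 in the other 7.

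Of the remaining HoxA genes, one was called. *Hoxa5*, a gene of lung and gut mesenchyme and the HoxA member with most counts over all libraries, had 8.09, 11.3 and 15.6 CPM in ileum and 4.93, 8.80 and 12.6 CPM in colon as lowest, median and highest (log2 fold change 0.30 ± 0.17; adjusted p = 0.177). *Hoxa4* was higher in ileum by 1.32 ± 0.24 (adjusted p = 7.70e-04), at 0.715 to 1.83 CPM in ileum and 0.219 to 0.706 CPM in colon, with no overlap. *Hoxa2*, *Hoxa3* and *Hoxa6* were not called, with log2 fold changes of 0.53, 0.03 and 0.10. *Hoxa2* stood at an adjusted p of 0.0602 and was called higher in ileum by DESeq2 (0.0358) and limma-voom (0.0161), and without ileum WT replicate 1, colon Δchat replicate 3 or colon Δchat replicate 4 (0.048, 0.0466 and 0.0178). With the fibroblast score as a covariate, *Hoxa2*, *Hoxa5* and *Hoxb2* passed the threshold, with adjusted p of 0.0242, 0.0157 and 0.0245. *Hoxd1* was not tested, with 11 counts in ileum and 17 in colon.

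*Pitx1* had 1.05, 0.327, 0.900 and 1.07 CPM in ileum Δchat and 1.13, 0.674, 0.583 and 0.556 CPM in ileum WT. In colon Δchat it had 9.27, 7.44, 20.03 and 15.2 CPM, and in colon WT 17.9, 29.8, 22.0 and 8.35 CPM. All ileum libraries were far below all colon libraries, and the log2 fold change was -4.34 ± 0.33 (adjusted p = 1.57e-06), with an interval of -5.04 to -3.63.

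Per kilobase of annotated exon, the highest mean levels in ileum were those of *Hoxa5* at 6.05, *Hoxb4* at 4.59 and *Hoxd8* at 4.03 CPM per kb. In colon they were *Hoxb13* at 6.22, *Pitx1* at 6.12 and *Hoxa5* at 4.93 CPM per kb, and without Δchat replicate 3 *Hoxb13* was at 1.51 CPM per kb, while *Pitx1* and *Hoxa5* were at 5.91 and 4.83. *Hoxa13* and *Hoxd13* reached 1.53 and 3.48 CPM per kb in colon, or 1.19 and 1.94 without that library.

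Summed over all Hox genes, CPM ran from 101 to 162 in ileum and from 92.8 to 288 in colon, or to 164 in colon without Δchat replicate 3. Genes numbered 9 to 13 gave 7.14 to 11.8% of it in ileum and 31.9 to 68.6% in colon, or at most 42.3% without that library. By cluster, the HoxA genes 9 to 13 summed to 1.21 ± 0.79 CPM in ileum and 27.6 ± 8.9 CPM in colon (SD, n = 8 each). Those of HoxD summed to 1.92 ± 0.74 CPM in ileum and 18.7 ± 13.9 CPM in colon, where the highest was 51.1 CPM, or 20.5 CPM without Δchat replicate 3. HoxC genes 4 to 8 were at 10.2 ± 3.3 CPM in ileum and 0.850 ± 0.439 CPM in colon. No test was made of these sums, which describe the members already chosen.

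**Figure D4:**
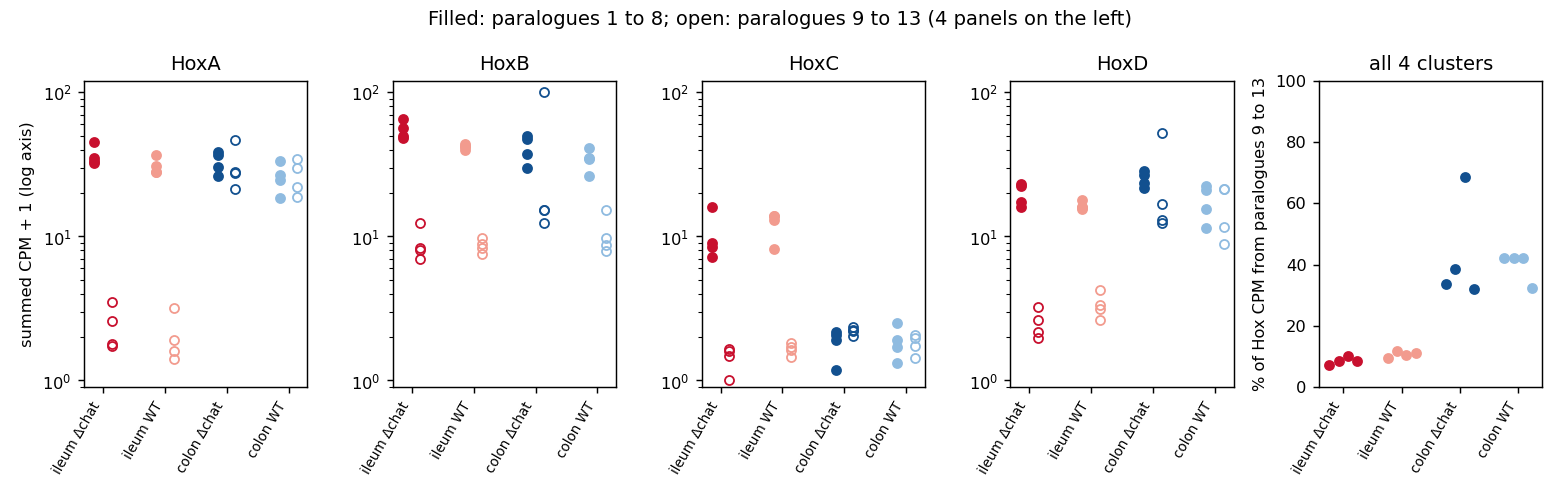
Summed CPM + 1 on a log axis for each cluster and library, filled for paralogues 1 to 8 and open for 9 to 13, and on the right the percentage of all Hox CPM that came from paralogues 9 to 13. Ileum libraries lie between 7.14 and 11.8% and colon libraries between 31.9 and 68.6%, the top one being colon Δchat replicate 3.

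The ileum was also compared with the colon in mice of each strain. In mice with Δchat, 5 members were higher and 11 lower in ileum, against 8.31% and 5.03% of all genes. In mice with WT, 7 were higher and 11 lower, against 13.7% and 15.1% of all genes. The 11 called lower were the same 11 genes in both and in the mean over strains. *Hoxa4*, *Hoxc4*, *Hoxc5*, *Hoxc6* and *Hoxc8* were called higher in both, and *Hoxb5* and *Hoxb7* passed with WT (adjusted p = 0.0382 and 0.0376) but not with Δchat (0.0745 and 0.106), at similar values. *Hoxb5* had log2 fold changes of 0.80 with Δchat and 0.85 with WT, and *Hoxb7* of 0.52 with Δchat and 0.61 with WT. DESeq2 called *Hoxb5* with Δchat as well (adjusted p = 0.0289). The log2 fold change of *Hoxa9* was -2.90 ± 0.49 with Δchat and -3.24 ± 0.51 with WT, that of *Hoxc6* 2.53 ± 0.45 and 2.84 ± 0.46, and that of *Pitx1* -3.94 ± 0.46 and -4.73 ± 0.48. For *Hoxa13*, *Hoxb13*, *Hoxd11* and *Hoxd13* the ileum Δchat libraries held no count, so the fitted values there are no measure of size. In mice with Δchat, a fit of their own 8 libraries called 2 higher and 9 lower, and the like fit with WT called 5 higher and 9 lower. In mice with WT, the call of *Hoxb13* stood at an adjusted p of 0.0491, and with a library left out 8 to 11 members were lower and 5 to 8 higher.

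Whether the difference between regions itself differed between strains was tested as an interaction. 0 members were called by edgeR, 0 had an unadjusted p under 0.05 there, and its lowest adjusted p was 0.644. Over all genes edgeR called 0.0592%. DESeq2 and limma-voom called 0 members as well, with lowest adjusted p of 0.405 (*Hoxb13*) and 0.373 (*Hoxd8*). DESeq2 had 1 member with an unadjusted p under 0.05, and gave no adjusted p for *Hoxc5*, *Hoxc9* and *Hoxc10*. The interval of the interaction was narrow for *Hoxa7* (-0.70 to 0.33) and *Hoxb3* (-0.49 to 0.49), and wide for *Hoxd13* (-11.2 to 5.71). The *Hoxd13* estimate was -2.73 ± 3.85, and -1.10 ± 1.31 without colon Δchat replicate 3. Without that library *Hoxa13* went from -1.89 ± 1.73 to -1.01 ± 0.78 and *Hoxd11* from -1.79 ± 1.83 to -0.86 ± 0.87. *Hoxb13* went from -6.80 ± 4.89 to -4.45 ± 2.34. Ileum held few counts of these terminal genes, and a difference between strains could be missed either way.

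**Figure D5:**
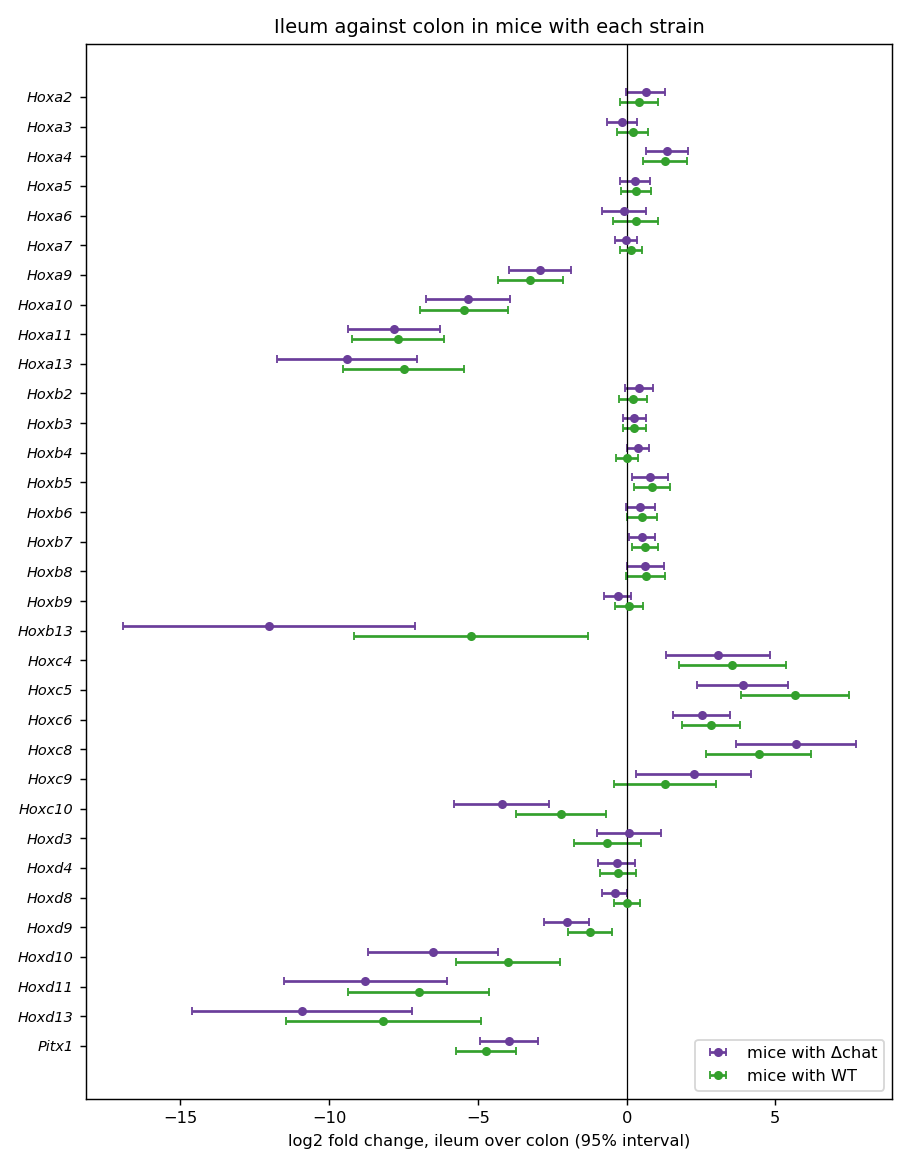
Log2 fold change of ileum over colon for members tested, with 95% intervals, in mice with Δchat (upper point of each pair) and with WT (lower point). The intervals of each pair drawn overlap, and the widest are those of *Hoxb13* and *Hoxd13*, whose ileum libraries held 4 counts and 1 count.

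The strains were compared within each region to ask whether bacterial acetylcholine production went along with Hox expression. In colon, 0 of 30 members were called, and over all genes 0.00682% were. At an unadjusted p under 0.05 by edgeR there were 5 (*Hoxa7*, *Hoxb6*, *Hoxb13*, *Hoxc10* and *Hoxd8*), and its lowest adjusted p was 0.313. DESeq2 and limma-voom called 0, but DESeq2 gave no adjusted p for *Hoxa4*, *Hoxb13*, *Hoxc6* and *Hoxc10*. *Hoxd8* had 18.1, 14.2, 15.5 and 15.6 CPM in colon Δchat and 7.12, 11.3, 13.02 and 8.69 CPM in colon WT. Every Δchat library lay above every WT library, and the log2 fold change, Δchat over WT, was 0.67 ± 0.19 (adjusted p = 0.313 by edgeR). For *Hoxd8* the adjusted p was 0.0616 by DESeq2, 0.216 by limma-voom and 0.0802 with the fibroblast score in the edgeR fit. Estimates were above 0 for 27 of 30 members with a median of 0.30, against 51.0% of all genes and a median of 0.01. Without colon Δchat replicate 3 they were above 0 for 20 of 30, and with the epithelial score in the fit for 17 of 30. The estimate of *Hoxb13* was 3.54 ± 1.31 with that library and 1.13 ± 0.62 without it, and then *Hoxb6* and *Hoxd8* alone had an unadjusted p under 0.05. The members share libraries, and no test was made of this count.

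In ileum, 0 of 26 members were called by edgeR, and over all genes 0.0207% were. At an unadjusted p under 0.05 there were 4 (*Hoxb2*, *Hoxb4*, *Hoxb6* and *Hoxb8*), and limma-voom called 0. *Hoxb6*, a gene of the trunk with the smallest p, had 7.45, 8.23, 11.4 and 9.13 CPM in ileum Δchat and 6.01, 4.94, 4.35 and 5.62 CPM in ileum WT. Every Δchat library lay above every WT library, and the log2 fold change was 0.77 ± 0.18 (adjusted p = 0.189). DESeq2 called this 1 gene of the 26, at 0.79 ± 0.20 (adjusted p = 0.00933), and 374 of the 14496 genes in all. Over the alternatives run, the adjusted p of *Hoxb6* ranged from 0.00933 to 0.517, the last with the replicate number as a block, with log2 values of 0.63 to 1.09. The fibroblast score was low in ileum Δchat replicates 1 and 2, and with that score in the fit the log2 value of *Hoxb6* was 1.09 ± 0.19 (adjusted p = 0.416). In colon, *Hoxb6* had 7.77, 5.80, 4.67 and 8.12 CPM with Δchat and 2.52, 3.23, 5.31 and 3.39 CPM with WT, where the groups overlapped (0.87 ± 0.27; adjusted p = 0.318). The same log2 fold change for *Hoxa7* was 0.24 ± 0.18 in ileum and for *Pitx1* 0.17 ± 0.44, and neither was called. Estimates were above 0 for 19 of 26 members with a median of 0.22, against 53.2% of all genes and a median of 0.02.

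Partners and neighbours of the Hox genes were read from lists of their own. Among 11 cofactors of the TALE class, which bind DNA beside HOX proteins, 2 were higher and 1 was lower in ileum, against 18.5% and 19.7% of all genes. The cofactors called were *Pbx3* (log2 fold change 0.49 ± 0.11, adjusted p = 0.00417), *Meis2* (0.51 ± 0.17, 0.0301) and *Pknox2* (-1.40 ± 0.24, 4.98e-04). The other 8 were not called. Of 8 caudal, ParaHox and Evx genes, 4 were tested. *Cdx2*, a homeobox gene of the intestinal epithelium that acts on Hox genes, was higher in ileum by 2.35 ± 0.57 (adjusted p = 0.00555). *Pknox2* and *Cdx2* were named after their values were seen.

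The Evx genes lie next to the terminal Hox genes of 2 clusters. *Evx1*, the neighbour of *Hoxa13*, was higher in ileum by 1.18 ± 0.19 (adjusted p = 3.33e-04), at 0.772 to 3.27 CPM in ileum and 0.605 to 0.975 CPM in colon. *Evx2*, the neighbour of *Hoxd13*, was at 0 in all ileum libraries and at 0.101 to 2.59 CPM in colon (adjusted p = 9.44e-04). The pair therefore went opposite ways, with *Evx2* on the side of *Hoxd13* and *Evx1* not on the side of *Hoxa13*. These values were picked out after they were seen.

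Of 26 regional transcription factors of gut mesenchyme, 18 were tested, 3 were higher and 9 were lower in ileum, against 18.5% and 19.7% of all genes. Their median log2 value was -0.92, against -0.04 over all genes. *Tcf21*, a factor of visceral mesenchyme, was lower by -2.11 ± 0.35 (adjusted p = 4.76e-04), with 4.36 to 20.1 CPM in ileum and 25.1 to 91.4 CPM in colon. *Osr1* was lower by -2.09 ± 0.35 (5.03e-04) and *Foxf2*, a factor of gut fibroblasts, by -1.61 ± 0.30 (9.85e-04). *Nkx2-3*, which patterns the midgut and the spleen, was higher by 0.89 ± 0.16 (8.75e-04). *Isl1* ran from 0 to 0.0595 CPM in ileum and from 1.58 to 7.32 CPM in colon, and was picked out after its values were seen.

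The 24 chromatin regulators of Hox loci, Polycomb and MLL group genes among them, had 4 higher and 4 lower, all by small amounts. Over all genes, 18.5% were called higher in ileum and 19.7% lower. *Phc1*, a Polycomb subunit, was lower by -0.45 ± 0.07 (adjusted p = 2.84e-04), and *Jarid2* by -0.48 ± 0.12 (0.00535), while *Mllt3* was higher by 0.35 ± 0.06 (8.40e-04). *Ezh2*, the methyltransferase of Polycomb, was not called. Of 19 genes of signals that set Hox expression, 15 were tested, 3 were higher and 5 lower, against the same shares of all genes. *Rarb*, a retinoic acid receptor, was higher by 1.57 ± 0.27 (4.76e-04) and *Cyp26b1*, which breaks retinoic acid down, by 1.81 ± 0.44 (0.00628). *Fgf10*, a growth factor of gut mesenchyme, was lower by -4.03 ± 0.43 (1.30e-05) and *Bmp4* by -1.59 ± 0.28 (7.70e-04). Of 21 antisense and host transcripts of the clusters, 1 was in the table, *Gm28230*, and it was not called. The library preparation does not mark strand, so reads of a Hox gene and of a transcript opposite to it cannot be told apart.

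Cell markers moved with the regions as well, and the counts below stand beside 18.5% of all genes called higher in ileum and 19.7% lower. In ileum, 5 of 18 fibroblast markers were lower and 2 higher, and 7 of 10 smooth muscle markers were lower. Of 11 endothelial markers, 8 were higher and 1 was lower. Among the called genes, *Pdpn* was lower by -1.70 ± 0.32 and *Thy1* higher by 0.56 ± 0.09 (adjusted p = 0.00121 and 3.55e-04). Of 10 T cell markers, 9 were higher and 1 was lower, and plasma cell markers were higher in 9 of 10. Of 8 glia, neuron and pacemaker cell markers tested, 4 were higher, and of 10 mast cell markers 2 were higher and 3 lower. Of 16 epithelial markers, 1 was higher and 1 lower. Of the epithelial markers of the ileum that were tested, 3 of 9 were higher and 2 lower, and of those of the colon 1 of 8 was higher and 5 were lower. When the mean of the epithelial markers was a term of the fit, the same 10 members were higher and the same 11 were lower. When that of the fibroblast markers was, the same 11 were lower and 12 were higher, where *Hoxc9* was lost (adjusted p = 0.0584) and *Hoxa2*, *Hoxa5* and *Hoxb2* were gained. Within mice of each strain, that edgeR fit no longer called *Hoxb13* lower, at an adjusted p of 0.0505 with Δchat and 0.0779 with WT.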

How the data were processed

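RNA was poly-T selected, primed with random hexamers and second-strand synthesis used dTTP, per the labels' protocols. The deposited values are estimated counts per Ensembl gene, made with cutadapt 5.0, Salmon 1.4.0 and GRCm39 per the submitters' processing notes. Between 34.8 and 40.7% of them were not whole, and they were rounded. edgeR 4.0.16 (R 4.3.3) kept genes by filterByExpr and used TMM scaling and robust quasi-likelihood tests, and p-values were adjusted by Benjamini and Hochberg's method across every gene tested. Regions and the interaction were tested over 16 libraries, strains over 8 of one region. The SE was derived from the log2 fold change and F. DESeq2 1.42.0, limma-voom (limma 3.58.1), other filters and scalings, marker scores as covariates and each library left out were alternatives. The fitting steps were tested on simulated data. Names, gene order and exon lengths came from a GRCm38 annotation, and promoter windows from RefSeq. The members, lists and the rule for named genes were chosen with earlier results of these data known. That rule took the members with the smallest p, *Pitx1* and the most abundant member of each cluster, 15 in all, and from each other list up to 4 called genes of the smallest p with at least 5 CPM. A few genes are not reported here by name. Counting intervals cover counting error only.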

Additional observations from a re-analysis of the deposited data

Results flagged for a closer look

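For the 15 members with full values, 1 library lay far from the other 3 by Dixon's criterion in 11 of 60 combinations of a member and a group of 4. In 7 of the 11 the other 3 libraries were all at 0, where any count meets the criterion, so the rate of about 1 in 20 that chance gives does not apply to them. *Hoxb13*, at 86.4 CPM in colon Δchat replicate 3, was not among the members examined this way. 3 of the 11 were colon Δchat replicate 3, with 9.68 CPM of *Hoxa13*, 6.51 CPM of *Hoxd11* and 35.5 CPM of *Hoxd13*, all high. The epithelial score was 6.78 in that library, and its part in these values was not tested. The next 6 were ileum libraries that held the only counts of a gene in their group. They were *Hoxa11* in Δchat replicate 1 at 0.131 CPM and in WT replicate 2 at 0.112 CPM, *Hoxa13* in WT replicate 1 at 0.0595 CPM, *Hoxd10* in Δchat replicate 3 at 0.0429 CPM, *Hoxd11* in WT replicate 3 at 0.0449 CPM and *Hoxd13* in WT replicate 4 at 0.0556 CPM. *Hoxc5* in colon WT replicate 3, at 0.0399 CPM, was likewise the one library of its group with a count. *Hoxc6* was high in ileum Δchat replicate 3, at 5.27 CPM.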

How the results depend on the processing

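The 11 members lower in ileum in the mean over strains stayed called in every alternative in which they were tested, *Hoxc10* being untested under a filter of 1 CPM. The count of higher members was 8 to 11 with a library left out. In mice with Δchat, a fit of their 8 libraries alone gave 2 higher and 9 lower, losing *Hoxa4*, *Hoxc4*, *Hoxc5*, *Hoxb13* and *Hoxd13*. The like fit with WT gave 5 higher and 9 lower, losing *Hoxb5*, *Hoxc4*, *Hoxc10* and *Hoxd10*. In ileum, DESeq2 called 1 member between strains, *Hoxb6*. No other count of called members moved by over 1.5 times, and none reversed. Between strains in colon, the count of estimates above 0 fell from 27 to 17 of 30 with the epithelial score in the fit. Over all genes, DESeq2 called 58 in the interaction, against 9 by edgeR, and 313 in colon and 374 in ileum between strains, against 1 and 3. Library names share numbers between ileum and colon, but no label says that a number marks a shared mouse. With the replicate number as a block, 7 members were higher and 11 lower in the mean over strains, 4 and 11 with Δchat, and 5 and 9 with WT, and 0 were called for the strain or the interaction. For the strain comparisons this block joined Δchat and WT libraries of like number, which came from different mice. Its result there is no check of those comparisons. The block lost *Hoxb6*, *Hoxb8* and *Hoxc9* in the mean over strains (adjusted p = 0.0712, 0.0551 and 0.0644), *Hoxc4* with Δchat, and *Hoxb5*, *Hoxb7*, *Hoxc10* and *Hoxd9* with WT. Same-numbered ileum and colon libraries correlated at -0.18 to 0.274 with Δchat and -0.0571 to 0.0742 with WT, and 2 of 4 and 0 of 4 matched their own number best. Across strains these correlations were -0.0947 to 0.335 in colon and -0.269 to 0.0132 in ileum. Pooled ratios without colon Δchat replicate 3 were added after seeing the data. Without a filter on low counts, *Hoxc11* and *Hoxd12* were called lower as well. Counts of 0 to 4 in ileum limit the size given for *Hoxa11*, *Hoxa13*, *Hoxb13*, *Hoxd11* and *Hoxd13*.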
